A study of Homo sapiens with 12 samples.

Results

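The immunoproteasome and the machinery that loads peptides onto MHC class I molecules were followed through a list of 10 genes: PSMB8, PSMB9, PSMB10, PSME1, PSME2, TAP1, TAP2, TAPBP, B2M and NLRC5. A gene's value came from probe sets annotated to its symbol alone, and where there were several, from the one with the highest mean over the 12 arrays. On this rule 9 of the 10 genes had a value, out of 19775 genes on the array, and all 9 lay above the signal limit of log2 5 on all 12 arrays. PSME2 was read only by a probe set that another gene symbol shares, so it has no value. The cells were U937, an established line of human monocyte-like leukaemia cells, transduced with either EVI1 or the empty vector. EVI1 is a zinc finger transcription factor and leukaemia oncogene encoded in the MECOM locus. Each was exposed for 24 h to 1 µM all-trans retinoic acid (ATRA), a ligand of the retinoic acid receptors, or to the solvent DMSO. The 4 groups are called EVI1 ATRA, vector ATRA, EVI1 DMSO and vector DMSO, with 3 arrays each, numbered 1 to 3. The promoter that drives EVI1, and whether each line is a clone or a pool, are not given in the sources used here.

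The proteasome cuts cytosolic proteins into peptides with catalytic subunits at its beta 1, beta 2 and beta 5 positions. In immune cells and after interferon gamma, newly built particles take up PSMB9, PSMB10 and PSMB8 in place of the constitutive PSMB6, PSMB7 and PSMB5, and the PSME1 and PSME2 proteins form a ring that caps the particle. Peptides then pass into the endoplasmic reticulum through the TAP1 and TAP2 transporter, tapasin (TAPBP) holds empty class I molecules beside it, and B2M is the light chain of every classical class I molecule. NLRC5 is a transcriptional activator of class I genes and their partners, and the genes are textbook targets of interferon signalling, IRF1 among its factors.

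Array medians lay between 5.29 and 5.35 and correlations within a group between 0.987 and 0.995. The myeloid marker list (7 of 7 measured genes reached the signal limit on some array) averaged 9.74 to 10.0 on EVI1 ATRA arrays, 9.73 to 9.75 on vector ATRA arrays, 9.41 to 9.70 on EVI1 DMSO arrays and 9.47 to 9.62 on vector DMSO arrays. The T and NK cell list, which names other cells rich in these genes, averaged 5.22 to 5.35, 5.18 to 5.35, 5.17 to 5.26 and 5.12 to 5.32 on the same 4 groups in that order, with 2 of its 7 genes under the limit on every array. The 5 probe sets of MECOM read 2.61 to 3.60 on all 12 arrays, so they do not check the EVI1 label. Both DMSO arrays of number 3 stood closer to the ATRA arrays for several of the genes, and values without them are given for PSMB9, PSME1, TAP2 and TAP1. In RNA from whole cultures, a change in the number of cells of one kind and a change in RNA per cell cannot be told apart.

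The start regions of these genes are shown because one short sequence recurs in them. RefSeq windows on GRCh38.p14, 250 bases before to 50 bases after each annotated start, were found for 9 of the 10 genes (11 windows, as PSMB8 and TAP1 have a pair of starts each), including PSME2. A pair of interferon regulatory factor (IRF) half-sites, GAAANNGAAA on either strand, was present in 8 of these 9 genes, all but PSMB9. Among all RefSeq windows, 3.57% of 35116 hold it, which is 1195 of 27305 genes. Each line gives the pair in capitals with 10 bases on either side, written 5′ to 3′ on the strand that reads GAAANNGAAA. Overlapping pairs are run together.
PSMB10, chr16:67936852-67936881, minus strand: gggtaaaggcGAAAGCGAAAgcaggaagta
PSMB8 (start 2), chr6:32844032-32844061, plus strand: aggaggaagtGAAAGCGAAAgccacagatc
PSME1, chr14:24136189-24136218, minus strand: accgcgaaggGAAAGCGAAAgcggtagggc
PSME2, chr14:24146619-24146648, minus strand: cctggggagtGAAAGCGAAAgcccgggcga
TAP1 (start 1), chr6:32853813-32853848, plus strand: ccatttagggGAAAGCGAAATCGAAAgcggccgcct
TAP2, chr6:32838778-32838807, minus strand: ctggggaagcGAAAGCGAAAgctgcccgag
TAPBP, chr6:33314073-33314108, minus strand: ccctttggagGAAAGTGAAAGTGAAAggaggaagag
B2M, chr15:44711363-44711398, plus strand: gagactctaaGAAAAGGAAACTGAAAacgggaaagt
The core read GAAAGCGAAA in PSMB10, PSMB8, PSME1, PSME2, TAP1 and TAP2, and TAP1, TAPBP and B2M held overlapping pairs. The pair lay 21 to 12 bases before the start in PSMB10, 28 to 19 bases before it in PSME2, 58 to 49 bases before it in TAP2 and 134 to 119 bases before it in TAP1.

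PSMB9 and TAP1 are transcribed away from each other, with starts 488 bases apart on chromosome 6, and their windows share 13 bases. Both windows are given because the pair of genes is read from one stretch of DNA. Capitals mark the IRF pair and matches to the kappa B consensus, the site of NF-kappa B factors.
TAP1 (start 1), chr6:32853655-32853954, minus strand: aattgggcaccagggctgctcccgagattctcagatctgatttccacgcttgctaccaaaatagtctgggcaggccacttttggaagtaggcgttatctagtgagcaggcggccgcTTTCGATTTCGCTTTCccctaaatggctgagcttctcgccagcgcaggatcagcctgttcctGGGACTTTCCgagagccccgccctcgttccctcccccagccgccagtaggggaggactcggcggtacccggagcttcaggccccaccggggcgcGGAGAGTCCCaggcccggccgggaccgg
PSMB9, chr6:32853942-32854241, plus strand: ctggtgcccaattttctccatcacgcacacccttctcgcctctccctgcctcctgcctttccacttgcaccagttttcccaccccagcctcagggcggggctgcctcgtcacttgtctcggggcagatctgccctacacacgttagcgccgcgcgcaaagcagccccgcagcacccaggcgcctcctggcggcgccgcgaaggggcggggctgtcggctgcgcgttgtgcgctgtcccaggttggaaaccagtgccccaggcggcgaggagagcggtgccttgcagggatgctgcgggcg
The PSMB9 window held none of the motifs searched. The IRF pair of TAP1 lies between the starts of TAP1 and PSMB9, outside the PSMB9 window. Kappa B matches were found in TAP1, TAPBP and B2M (3 of 9 genes, against 1937 of 27305 genes and 5.91% of all windows). The gamma-activated element TTCNNNGAA was found in the second windows of PSMB8 and TAP1 (2 of 9 genes, against 2560 of 27305 genes and 7.66% of all windows). The cyclic AMP element TGACGTCA (1.85% of all windows) and the retinoic acid receptor elements DR5 (0.088%) and DR2 (0.04%), by their consensus, were in 0 of the 9 genes. Of the 27305 genes, 614, 29 and 14 hold them. Both strands were searched. A match describes letters in a window and not a bound site.

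**Figure D1:**
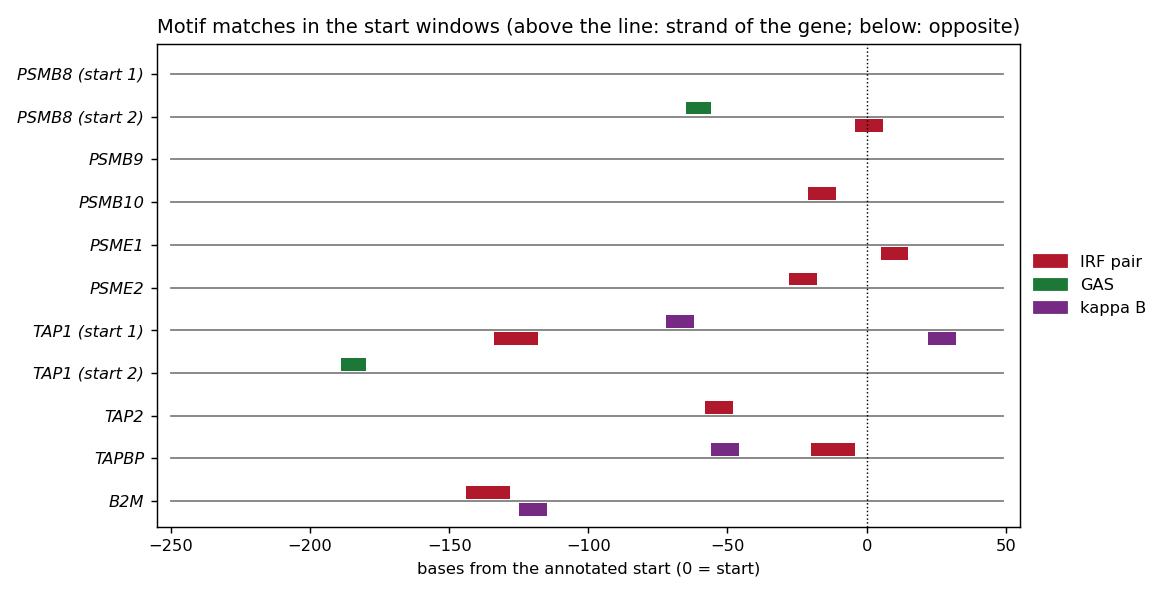
Motif matches in the 11 RefSeq start windows. The horizontal axis is the distance in bases from the annotated start; blocks above a line lie on the gene's strand and blocks below it on the opposite strand. Red blocks mark the IRF pair, which lies in 8 of the 9 genes; PSMB9 has no block.

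ATRA and DMSO were compared to ask how the antigen-processing genes react to the retinoid in these cells. Averaged over both cell types, PSMB9, PSMB10, PSME1, TAPBP, TAP1 and NLRC5 rose and TAP2 fell, while PSMB8 and B2M did not pass the test. That is 6 of 9 genes higher, against 11.1% of the 14080 genes tested, and 1 of 9 lower, against 11.3%. The test was limma with Benjamini-Hochberg adjustment over all genes, called at an adjusted p under 0.05. It left out the replicate number, and with that number as a block PSMB8 also passed (adjusted p = 0.0172). The median log2 difference of the 9 genes was 0.35, beside -0.01 over all genes tested. The largest rise, of PSMB9, was 0.98 ± 0.17 (SE, 12 arrays), which is 1.97-fold.

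Of the catalytic immunosubunits, PSMB9 (chr6:32854192-32859851, the beta 1 immunosubunit) moved most. Its log2 levels were 11.10, 11.04 and 11.04 in EVI1 ATRA and 10.79, 10.53 and 10.87 in vector ATRA, against 10.12, 10.33 and 10.80 in EVI1 DMSO and 9.10, 9.10 and 10.05 in vector DMSO. In neither cell type did the ATRA and DMSO arrays overlap, and the DMSO arrays of number 3 were the highest of their groups. The ATRA difference was 1.31 ± 0.24 in vector cells (2.49-fold, limma adjusted p = 0.0153). In EVI1 cells it was 0.64 ± 0.24 and was not called (adjusted p = 0.0937), but was called with the replicate number as a block (adjusted p = 0.0161). Without both DMSO arrays of number 3 the differences were 1.63 ± 0.13 (adjusted p = 0.000196) in vector cells and 0.84 ± 0.13 (adjusted p = 0.00407) in EVI1 cells.

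PSMB10 (chr16:67934506-67936850), the beta 2 immunosubunit, stood at 10.71, 10.65 and 10.51 in EVI1 ATRA and 10.64, 10.45 and 10.57 in vector ATRA, against 9.94, 9.72 and 9.98 in EVI1 DMSO and 9.75, 9.52 and 9.95 in vector DMSO. All 6 ATRA arrays lay above all 6 DMSO arrays. It rose by 0.74 ± 0.13 in EVI1 cells (1.67-fold, adjusted p = 0.00341) and by 0.81 ± 0.13 in vector cells (1.76-fold, adjusted p = 0.00712). The averaged rise of 0.78 ± 0.09 had an adjusted p of 0.0002, and it was called without any one of the 12 arrays (adjusted p 0.000249 to 0.000957).

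PSMB8 (chr6:32840717-32844679), the beta 5 immunosubunit, had 11.61, 11.59 and 11.50 in EVI1 ATRA and 11.66, 11.53 and 11.54 in vector ATRA, against 11.55, 11.51 and 11.52 in EVI1 DMSO and 11.25, 11.21 and 11.35 in vector DMSO. The vector DMSO arrays were the low ones, and the other 3 groups overlapped. The ATRA difference was 0.04 ± 0.09 in EVI1 cells (adjusted p = 0.845, 95% interval -0.15 to 0.23). In vector cells it was 0.31 ± 0.09 and missed the threshold (adjusted p = 0.0845). With the replicate block the vector difference (adjusted p = 0.0137) and the average of 0.17 (adjusted p = 0.0172, without the block 0.0652) were called. The average was called in 5 of 8 alternative settings, and the vector difference in 2 of 9.

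PSME1 (chr14:24136194-24138962) encodes the alpha subunit of the activator ring. Its levels were 11.90, 11.97 and 12.14 in EVI1 ATRA and 11.71, 11.65 and 11.94 in vector ATRA, against 11.17, 11.40 and 11.75 in EVI1 DMSO and 10.99, 10.90 and 11.38 in vector DMSO. Array 3 was the highest of each group, and within a cell type the agents did not overlap. PSME1 rose by 0.56 ± 0.17 in EVI1 cells (adjusted p = 0.0397) and by 0.68 ± 0.17 in vector cells (adjusted p = 0.0464). The rises without both DMSO arrays of number 3 were 0.72 ± 0.14 (adjusted p = 0.00945) in EVI1 cells and 0.82 ± 0.14 (adjusted p = 0.0108) in vector cells. The vector call was lost with no signal filter (adjusted p = 0.0533) and with every probe set tested (adjusted p = 0.0594), and the call in EVI1 cells with only the groups compared in the fit (adjusted p = 0.0914).

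The transporter's subunits moved apart. TAP1 (chr6:32845209-32853704) had 9.05, 9.31 and 9.44 in EVI1 ATRA and 8.69, 8.74 and 8.67 in vector ATRA, against 9.04, 8.89 and 8.84 in EVI1 DMSO and 8.30, 8.42 and 8.40 in vector DMSO. Here the groups ordered first by EVI1, since all 6 EVI1 arrays lay above all 6 vector arrays. The averaged ATRA rise of TAP1 was 0.34 ± 0.08 (adjusted p = 0.00999). It was 0.34 ± 0.11 in EVI1 cells (adjusted p = 0.0576, with the replicate block 0.0211) and 0.33 ± 0.11 in vector cells (adjusted p = 0.143, with the block 0.0436).

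TAP2 (chr6:32821831-32838739), the other transporter subunit, had 9.54, 9.38 and 9.51 in EVI1 ATRA and 9.54, 9.30 and 9.49 in vector ATRA, against 9.73, 9.81 and 9.86 in EVI1 DMSO and 9.58, 9.54 and 9.59 in vector DMSO. On the brightest of its probe sets, the EVI1 DMSO arrays stood above the other 9. TAP2 fell by 0.32 on the log2 scale in EVI1 cells (SE 0.10, adjusted p = 0.0418) and by 0.23 averaged over the cell types (SE 0.07, adjusted p = 0.0334). In vector cells the difference was -0.13 ± 0.10 (adjusted p = 0.57). TAP2 has 4 probe sets. In EVI1 cells the differences of 2 others were -0.31 and -0.44, and the last lay under the signal limit. On those 2 others the EVI1 DMSO arrays overlapped the vector DMSO arrays. The call in EVI1 cells was lost in 5 of 9 alternative settings. These were no signal filter (adjusted p = 0.0563), every probe set tested (0.0574), the mean of its probe sets (0.0913), only the groups compared in the fit (0.125) and the fit without both DMSO arrays of number 3 (-0.29 ± 0.12, adjusted p = 0.133). Without both DMSO arrays of number 3 the averaged difference of -0.21 ± 0.08 was not called (adjusted p = 0.111), nor was the mean of all its probe sets (adjusted p = 0.07).

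TAPBP (chr6:33299694-33314078), the tapasin gene, had 9.77, 9.63 and 9.94 in EVI1 ATRA and 9.60, 9.38 and 9.63 in vector ATRA, against 9.28, 9.02 and 9.43 in EVI1 DMSO and 9.03, 8.79 and 9.31 in vector DMSO. Array 2 was the lowest of each group. TAPBP rose by 0.54 ± 0.15 in EVI1 cells (adjusted p = 0.0351), and in vector cells the difference was 0.49 ± 0.15 (adjusted p = 0.109, with the replicate block 0.00168). Its other 2 probe sets gave averaged differences of 0.18 and 0.27 on weaker signals, without a call. With the mean of its probe sets the difference was 0.38 in EVI1 cells, where it was no longer called (adjusted p = 0.0551), and 0.26 in vector cells. The call in EVI1 cells was also lost with only the groups compared in the fit (adjusted p = 0.0766).

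B2M (chr15:44711517-44718145), the class I light chain, read 14.12, 14.20 and 14.17 in EVI1 ATRA and 14.09, 14.15 and 14.11 in vector ATRA, against 14.02, 14.10 and 14.09 in EVI1 DMSO and 14.02, 14.08 and 14.04 in vector DMSO. All 6 same-numbered pairs were higher under ATRA, by 0.07 to 0.10. The averaged difference of 0.08 ± 0.06 was not called (adjusted p = 0.374, 95% interval -0.04 to 0.21). The highest value of any probe set was 14.74 to 14.79 on each array, so B2M was read near the top of the scale, where differences can be compressed. How far this affected B2M was not tested.

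NLRC5 (chr16:56989557-57083520), the class I transactivator, had 7.21, 6.94 and 7.10 in EVI1 ATRA and 6.64, 6.43 and 6.53 in vector ATRA, against 6.61, 6.65 and 6.84 in EVI1 DMSO and 6.26, 6.06 and 6.31 in vector DMSO. The EVI1 ATRA arrays were the highest, and EVI1 DMSO and vector ATRA overlapped. NLRC5 rose by 0.38 ± 0.11 in EVI1 cells (adjusted p = 0.042) and by 0.35 ± 0.08 on average (adjusted p = 0.00877). In vector cells its difference was 0.32 ± 0.11 (adjusted p = 0.158, with the replicate block 0.021). The call in EVI1 cells was lost with no signal filter (adjusted p = 0.0539), with every probe set tested (0.0547) and with only the groups compared in the fit (0.117).

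**Figure D2:**
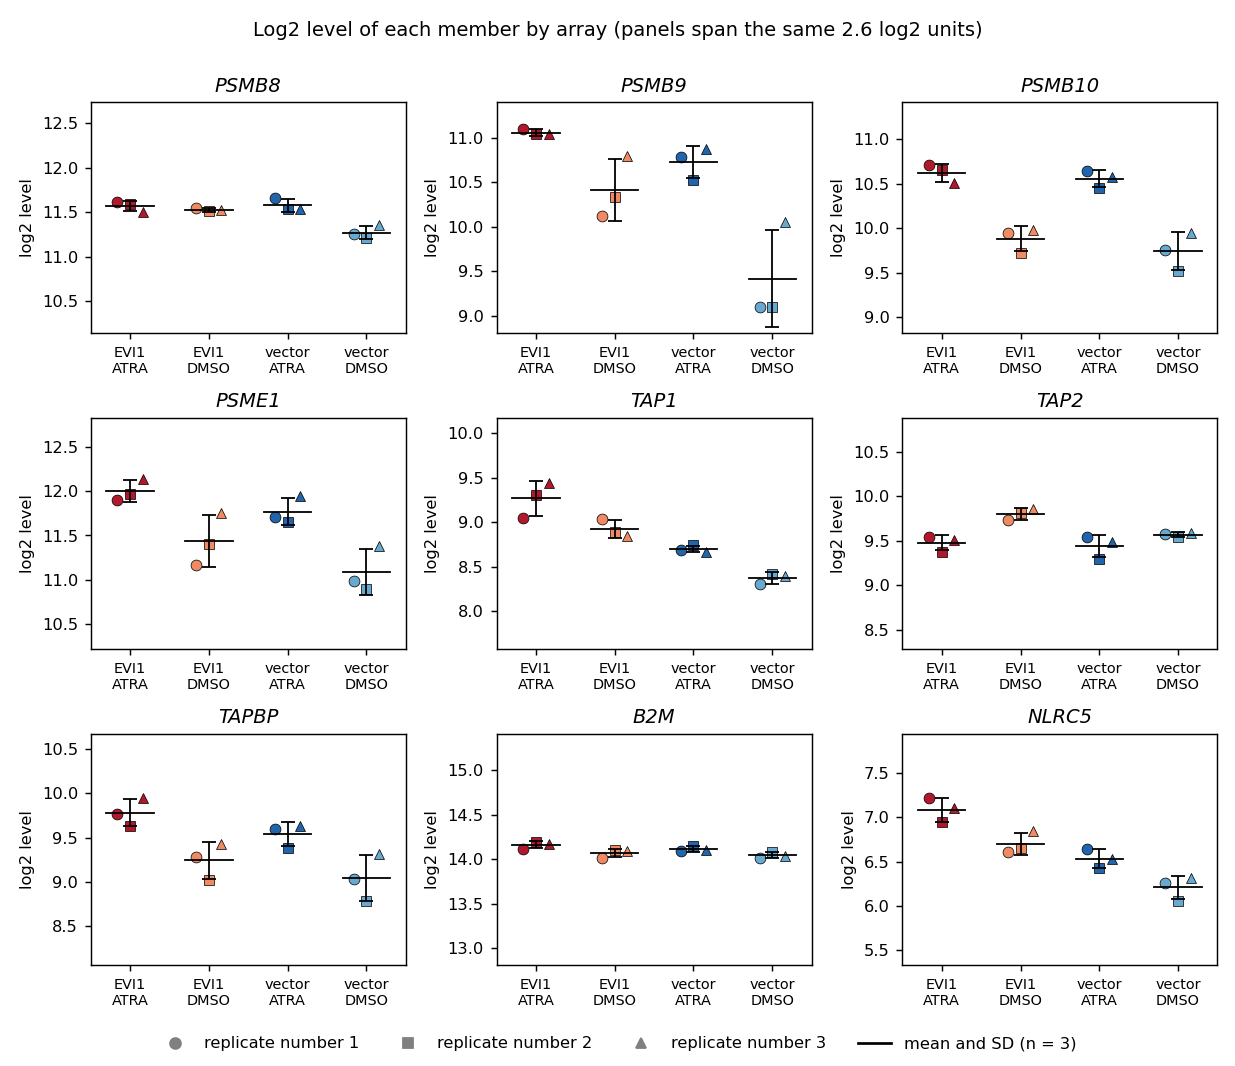
Log2 level of each of the 9 measured genes on each array, with group mean and SD (n = 3); every panel spans the same number of log2 units. Circles, squares and triangles are arrays 1, 2 and 3. PSMB10 separates the 6 ATRA from the 6 DMSO arrays, and TAP1 the 6 EVI1 from the 6 vector arrays. TAP2 is highest in EVI1 DMSO on the probe set shown.

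Counted by cell type, ATRA raised 4 of 9 genes in EVI1 cells and lowered 1 (TAP2), where 7.45% of all tested genes were called higher and 7.66% lower. In vector cells it raised 3 of 9 (PSMB9, PSMB10 and PSME1) and lowered 0, where 2.0% and 1.52% of all tested genes were called. With the replicate number as a block, 6 of 9 were higher and 1 lower in EVI1 cells, against 16.3% and 19.4% of all genes, and 7 of 9 higher in vector cells, against 9.96%. Averaged, 7 of 9 were higher and 1 lower with the block, against 19.2% and 21.4%. ATRA and DMSO arrays did not overlap for 8 of 9 genes in EVI1 cells and 8 of 9 in vector cells, against 27.5% and 23.4% of all genes. The calls by cell type depended on single arrays. In vector cells PSMB10 alone was called without vector ATRA 2, vector ATRA 3, vector DMSO 1 or vector DMSO 2 (PSMB9 adjusted p up to 0.0805), and PSME1 also lost its call without EVI1 ATRA 2 or 3, EVI1 DMSO 2 or vector ATRA 1 (adjusted p up to 0.186). In EVI1 cells PSMB10 alone was called without EVI1 ATRA 3, EVI1 DMSO 1 or EVI1 DMSO 2, 2 genes were called without EVI1 ATRA 2 or vector DMSO 1, and 3 without vector ATRA 2 or vector ATRA 3. The matching calls over all genes are not given, so a loss particular to the listed genes is not shown. In the average, the 6 rises were called without any one array, and TAP2 lost its call without each array other than EVI1 ATRA 1, EVI1 DMSO 1 and vector ATRA 1 (adjusted p up to 0.086).

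**Figure D3:**
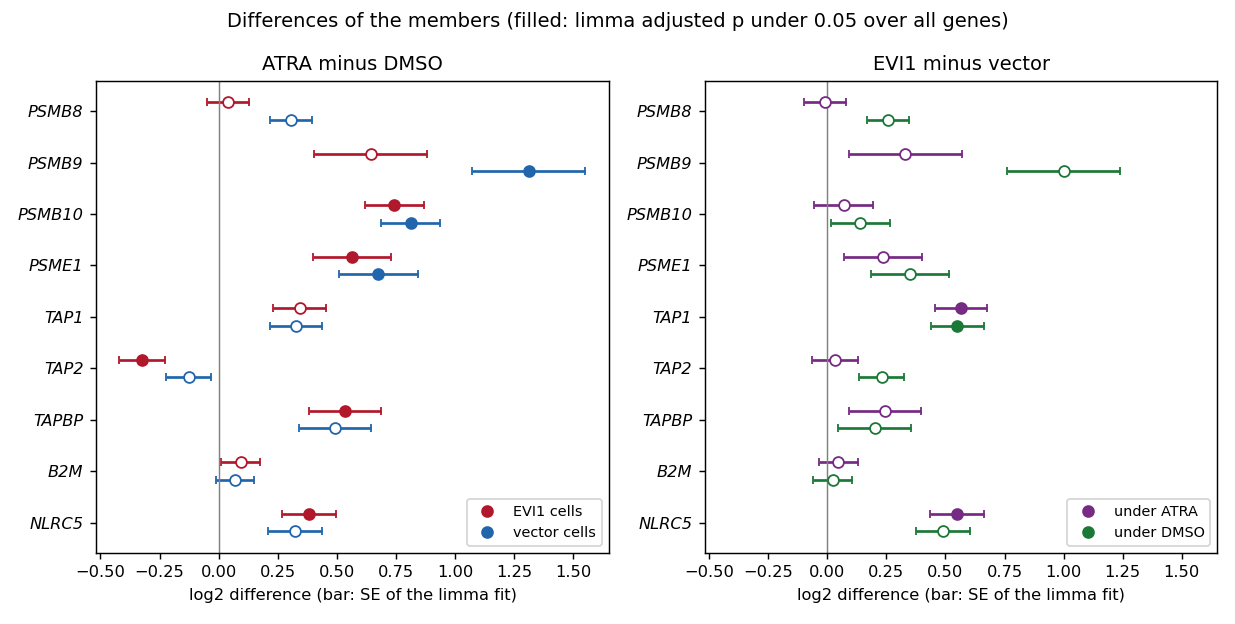
Log2 differences of the 9 genes with the SE of the limma fit, ATRA minus DMSO on the left and EVI1 minus vector on the right. Filled points have a limma adjusted p under 0.05 over all 14080 genes. PSMB9 shows the largest single differences (1.31 for ATRA in vector cells, 1.00 for EVI1 under DMSO), and TAP1 is filled in both EVI1 comparisons.

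EVI1 and vector cells were compared to ask whether the same genes differ between the lines. The labels name no separate transductions, so an effect of EVI1 cannot be told apart from another difference between the lines. A rise with EVI1 means a higher level in EVI1 cells than in vector cells. Averaged over both agents, TAP1, PSMB9 and NLRC5 rose with EVI1, 3 of 9 genes against 5.70% of all tested genes called higher, and 0 fell against 4.0%. TAP1 was higher by 0.56 ± 0.08 (1.47-fold, adjusted p = 0.00114) and NLRC5 by 0.52 ± 0.08 (1.43-fold, adjusted p = 0.00206), in 6 of 6 same-numbered pairs each. Both were called without any one array. PSMB9 was higher by 0.67 ± 0.17 (adjusted p = 0.029), also in 6 of 6 pairs. Its call was lost without EVI1 ATRA 2 or 3, EVI1 DMSO 2 or 3, vector ATRA 1 or 2, or vector DMSO 1 or 2 (adjusted p up to 0.077). With the replicate block, PSME1 (0.29, adjusted p = 0.00627) and TAPBP (0.22, adjusted p = 0.00995) were called as well, 5 of 9 genes against 16.0% of all genes.

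Under DMSO alone, TAP1 was the 1 gene of 9 called higher with EVI1 (0.55 ± 0.11, adjusted p = 0.0359), against 0.533% of all genes. That call was kept without EVI1 ATRA 1 or EVI1 ATRA 3 and lost without any other array (adjusted p up to 0.144). It was also lost after quantile normalisation (adjusted p = 0.0842), with only the groups compared in the fit (adjusted p = 0.0765) and without both DMSO arrays of number 3 (0.61 ± 0.15, adjusted p = 0.209). PSMB9 showed the largest difference, 1.00 ± 0.24, which is 2.00-fold, without a call (adjusted p = 0.0755), and NLRC5 differed by 0.49 ± 0.11 (adjusted p = 0.0666). After quantile normalisation NLRC5 was the 1 gene of 9 called (0.48, adjusted p = 0.0489). With the replicate block PSMB9 (adjusted p = 0.00725), NLRC5 (0.00571), TAP1 (0.00849) and PSME1 (0.0393) were called, 4 of 9 against 4.20% of all genes. Without both DMSO arrays of number 3, PSMB9 was the gene called (1.13 ± 0.14, adjusted p = 0.0115). EVI1 and vector arrays did not overlap for 5 of 9 genes under DMSO (PSMB8, PSMB9, TAP1, TAP2 and NLRC5), against 14.6% of all genes. For TAP2 this held on its brightest probe set alone.

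Under ATRA, TAP1 (0.57 ± 0.11, adjusted p = 0.014) and NLRC5 (0.55 ± 0.11, adjusted p = 0.0181) were higher with EVI1, 2 of 9 genes against 3.28% of all genes. Neither was called without EVI1 ATRA 3 or vector ATRA 3, TAP1 was not called without EVI1 ATRA 2 (adjusted p up to 0.0634), and NLRC5 was not called without vector ATRA 2 (adjusted p up to 0.0738). With only the groups compared in the fit neither was called (adjusted p = 0.0727 for TAP1 and 0.0678 for NLRC5). TAPBP was called as well with the replicate block (0.24, adjusted p = 0.0341), which makes 3 of 9 genes against 13.0%. PSMB8, PSMB10, TAP2 and B2M differed by -0.01 to 0.07 between EVI1 ATRA and vector ATRA, and their 95% intervals lay within -0.20 and 0.34. Arrays of the groups did not overlap for PSMB9, TAP1 and NLRC5, 3 of 9 genes against 21.0% of all genes.

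The difference between the ATRA effects of the cell types was tested as an interaction. It was called for 0 of 9 genes and 0.0% of all genes by limma (adjusted p = 0.998 for each), with 0 of the 9 and 362 of all genes at an unadjusted p under 0.05, and also for 0 with the replicate block. The widest point estimate was that of PSMB9, whose ATRA difference was smaller in EVI1 cells by 0.67 ± 0.34 (difference -0.67, 95% interval -1.41 to 0.07). PSMB8 followed with -0.27 ± 0.12 (95% interval -0.54 to 0.0039), and the other 7 lay between -0.20 and 0.06. With the replicate block the 95% interval of PSMB9 was -1.22 to -0.12 (adjusted p = 0.346) and that of PSMB8 -0.49 to -0.05 (adjusted p = 0.347). The difference of PSMB9 without both DMSO arrays of number 3 was -0.80 ± 0.18 (95% interval -1.21 to -0.38, adjusted p = 0.998). An equal ATRA effect thus lies inside the intervals of PSMB9 and PSMB8 without the block, and outside both intervals with it. Without both DMSO arrays of number 3 it lies outside the interval of PSMB9 and inside that of PSMB8 (-0.64 to 0.02). The intervals are not adjusted for the number of genes tested. PSMB9 averaged 11.06 ± 0.03 in EVI1 ATRA and 10.73 ± 0.18 in vector ATRA, against 10.42 ± 0.35 in EVI1 DMSO and 9.42 ± 0.55 in vector DMSO (SD, n = 3 each). PSMB10, PSME1, TAPBP and B2M had their group means in the same order. TAP1 and NLRC5 had EVI1 DMSO above vector ATRA, although for NLRC5 those neighbours overlapped.

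The immunosubunits were set against the constitutive subunits whose places they take, as the change of a log2 ratio within an array. ATRA raised the PSMB9 to PSMB6 ratio by 1.11 and the PSMB10 to PSMB7 ratio by 0.95, each with a 2-sided exact permutation p of 0.005, the smallest that the 400 arrangements allow (adjusted p = 0.0075 over 3 ratios). The PSMB8 to PSMB5 ratio rose by 0.55 (exact permutation p = 0.01, adjusted p = 0.01). Every one of the 6 same-numbered pairs was higher under ATRA for each ratio. For PSMB9 over PSMB6 the pair differences averaged 0.85 ± 0.31 in EVI1 cells and 1.37 ± 0.49 in vector cells (SD, n = 3 each). Those of PSMB10 over PSMB7 averaged 0.91 ± 0.25 and 0.98 ± 0.19 in the same order, and those of PSMB8 over PSMB5 0.46 ± 0.16 and 0.63 ± 0.19. Such ratios show unequal change and not a level of either gene.

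Without the replicate block the constitutive subunits themselves were called in none of the comparisons. PSMB5, the beta 5 subunit, had 10.61, 10.36 and 10.12 in EVI1 ATRA and 10.71, 10.38 and 10.36 in vector ATRA, against 11.16, 10.75 and 10.43 in EVI1 DMSO and 11.13, 10.68 and 10.62 in vector DMSO. It was lower in all 6 pairs, with an averaged difference of -0.37 ± 0.14 (adjusted p = 0.085, with the replicate block 0.000611). In EVI1 cells the ratio of PSMB8 to PSMB5 thus changed through PSMB5 (-0.42) more than through PSMB8 (0.04). The averaged differences of PSMB6 and PSMB7 were -0.13 ± 0.10 and -0.17 ± 0.09 (adjusted p = 0.398 and 0.215, with the block 0.0568 and 0.0214). With the block, PSMB5 (adjusted p = 0.00319) and PSMB6 (-0.20, adjusted p = 0.0444, without the block 0.381) were called lower in EVI1 cells, 2 of 3 against 19.4% of all genes. In vector cells PSMB5 was called lower with the block (-0.33, adjusted p = 0.0219), 1 of 3 against 10.1%. EVI1 against vector changed the PSMB9 to PSMB6 ratio by 0.53 under ATRA and by 1.06 under DMSO, as values without a test, and the PSMB10 to PSMB7 ratio by -0.02 and 0.05.

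**Figure D4:**
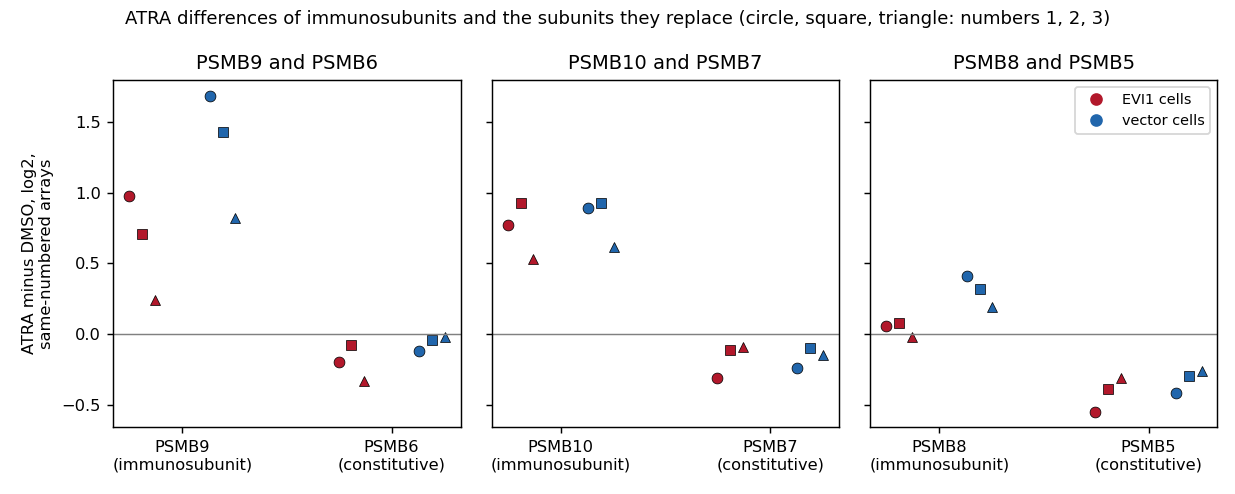
ATRA minus DMSO difference of log2 levels on same-numbered arrays for each immunosubunit and the constitutive subunit it replaces. Red points are EVI1 cells and blue points vector cells; circle, square and triangle are pairs 1, 2 and 3. PSMB9 and PSMB10 are above 0 in all 6 pairs, and PSMB5, PSMB6 and PSMB7 are below 0 in all 6.

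The other proteasome genes are given by the part of the particle they form, with ATRA calls read against 11.1% of all tested genes higher and 11.3% lower. Among 10 tested subunits of the remaining 20S core, which builds the barrel, 0 were called by limma in any comparison, with or without the replicate block, and their median averaged ATRA difference was -0.03. Of 14 tested subunits of the 19S regulator, which feeds ubiquitinated proteins into the barrel, PSMD3 fell with ATRA on average (-0.38 ± 0.09, adjusted p = 0.0138) and PSMC2 rose with EVI1 on average (0.46 ± 0.10, adjusted p = 0.0132). The 19S median under ATRA was -0.20, and 12 of the 14 were called lower with the replicate block, against 21.4% of all genes. With EVI1 on average 2 of the 14 were higher and 3 lower with the block, against 16.0% and 12.7% of all genes. Of 8 other activators and assembly factors, 5 fell with ATRA on average and 0 rose, with a median of -0.38. The assembly chaperones PSMG4, PSMG1 and PSMG3 fell by 0.68, 0.67 and 0.62 (adjusted p = 0.00231, 0.00421 and 0.00643). PSMG4 also fell with EVI1 on average (-0.55, adjusted p = 0.0154), as did PSMG3 and PSMG1 (-0.55 and -0.51, adjusted p = 0.0249 and 0.0352). Under ATRA the EVI1 differences of PSMG4, PSMG3 and PSMG1 were -0.80, -0.77 and -0.67 (limma adjusted p = 0.0208, 0.0375 and 0.0629). Under DMSO they were -0.30, -0.33 and -0.34, without a call (limma adjusted p = 0.67, 0.67 and 0.649). Of the 8, 3 were called lower with EVI1 on average, against 4.0% of all genes, and 5 with the block, against 12.7%. PSMG3 lost its EVI1 call in 7 and PSMG1 in 9 of the 12 fits without 1 array.

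Of 5 tested class I heavy chains, which carry the peptide groove, 4 rose with ATRA on average and 0 fell, against 11.1% and 11.3% of all tested genes, and the median was 0.38. These genes share much sequence, and their probes can read one another. How far they do was not tested, so they are not taken as separate measurements. HLA-C had 12.59, 12.85 and 12.83 in EVI1 ATRA and 12.48, 12.65 and 12.62 in vector ATRA, against 12.25, 12.51 and 12.54 in EVI1 DMSO and 12.06, 12.14 and 12.25 in vector DMSO. It rose by 0.38 ± 0.08 (adjusted p = 0.00627). HLA-E rose by 0.46 with ATRA (adjusted p = 0.0273) and by 0.50 with EVI1 (adjusted p = 0.0344), and lost these calls in 8 and 9 of the 12 fits without 1 array. HLA-G rose by 0.38 with ATRA (adjusted p = 0.0237) and lost the call in 6 of 12. Within each cell type 0 heavy chains were called. All 5 were called higher in each with the replicate block, against 16.3% of all genes in EVI1 cells and 9.96% in vector cells. With EVI1 on average 1 was called higher, against 5.70%, and 5 with the block, against 16.0%.

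Of 9 other tested loading and trimming genes, 2 rose and 1 fell with ATRA on average, against 11.1% and 11.3% of all tested genes, with a median of 0.05. The block gave 4 higher and 2 lower, against 19.2% and 21.4%. With EVI1 on average 0 were higher and 1 lower, against 5.70% and 4.0%, and with the block 2 and 2, against 16.0% and 12.7%. TAPBPL, a relative of tapasin that edits class I peptides, had 7.12, 7.38 and 7.66 in EVI1 ATRA and 6.94, 7.07 and 7.23 in vector ATRA, against 6.33, 6.12 and 6.69 in EVI1 DMSO and 5.72, 6.08 and 6.46 in vector DMSO. It rose by 1.01 ± 0.20 in EVI1 cells (adjusted p = 0.00797) and by 0.99 ± 0.20 in vector cells (adjusted p = 0.0239). ERAP2, which trims peptides in the endoplasmic reticulum, rose by 1.05 ± 0.21 on average (adjusted p = 0.00467), from levels near the signal limit under DMSO. The chaperone gene CALR fell with ATRA (-0.24, adjusted p = 0.0391) and with EVI1 (-0.28, adjusted p = 0.0373), and lost each call in 9 of the 12 fits without 1 array.

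Of 18 tested transcription regulators of the interferon and class I pathways, 3 rose and 2 fell with ATRA on average, with a median of 0.08. As shares these lie near the 11.1% and 11.3% of all tested genes. The block gave 5 higher and 3 lower, against 19.2% and 21.4%. With EVI1 on average 3 were higher and 1 lower, against 5.70% and 4.0%, and with the block 5 and 2, against 16.0% and 12.7%. IRF1, whose protein binds the IRF element, had 8.96, 9.06 and 9.58 in EVI1 ATRA and 8.96, 8.75 and 9.06 in vector ATRA, against 7.27, 7.27 and 8.39 in EVI1 DMSO and 6.99, 6.91 and 7.73 in vector DMSO. ATRA and DMSO arrays did not overlap, and the DMSO arrays of number 3 were again the highest of their groups. IRF1 rose by 1.56 ± 0.30 in EVI1 cells (adjusted p = 0.00666) and by 1.71 ± 0.30 in vector cells (adjusted p = 0.0138). Its EVI1 difference averaged 0.36 ± 0.21 and was not called (adjusted p = 0.36, with the replicate block 0.0356). IRF9 rose by 1.29 and IRF7 by 1.16 with ATRA on average (adjusted p = 0.000939 and 0.000717), and with EVI1 by 0.76 and 0.69 (adjusted p = 0.03 and 0.023). STAT3 was higher with EVI1 by 0.45 on average (adjusted p = 0.0248). These EVI1 calls were lost in 7, 4 and 5 of the 12 fits without 1 array. Under ATRA the EVI1 differences of IRF9, IRF7 and STAT3 were 1.12, 0.79 and 0.72 (limma adjusted p = 0.0363, 0.0744 and 0.0202). Under DMSO they were 0.40, 0.59 and 0.17, without a call (adjusted p = 0.776, 0.381 and 0.874).

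The genes for interferon gamma, IFNB1, IFNA1 and IFNL1 did not reach the signal limit on 3 arrays, with 3.02 to 3.44, 3.68 to 4.46, 2.79 to 3.29 and 4.57 to 5.07 across all arrays. Of 11 tested receptors and signalling genes, 2 rose with ATRA on average, against 11.1% of all tested genes, and 3 with EVI1 on average, against 5.70%, with medians of 0.18 and 0.27. Under the block 5 were higher and 1 lower with ATRA, against 19.2% and 21.4%, and 7 were higher with EVI1, against 16.0%. JAK1, a kinase of the interferon receptors, rose with ATRA by 0.47 ± 0.08 (adjusted p = 0.00164) and with EVI1 by 0.50 ± 0.08 (adjusted p = 0.00222). SOCS1, an inhibitor induced by the same signalling, rose by 0.40 ± 0.08 (adjusted p = 0.00317) and 0.54 ± 0.08 (adjusted p = 0.0012). These are averages. With EVI1, JAK1 differed by 0.73 under ATRA (limma adjusted p = 0.00445) and by 0.27 under DMSO (adjusted p = 0.42). SOCS1 differed by 0.72 (adjusted p = 0.00431) and 0.36 (adjusted p = 0.177) in the same order. In EVI1 cells both were called higher with ATRA, and in vector cells neither was. The interaction was called for neither gene (adjusted p = 0.998 each). IFNGR2, a chain of the interferon gamma receptor, rose with EVI1 by 0.27 ± 0.07 (adjusted p = 0.0328) and lost this call in 8 of the 12 fits without 1 array.

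**Figure D5:**
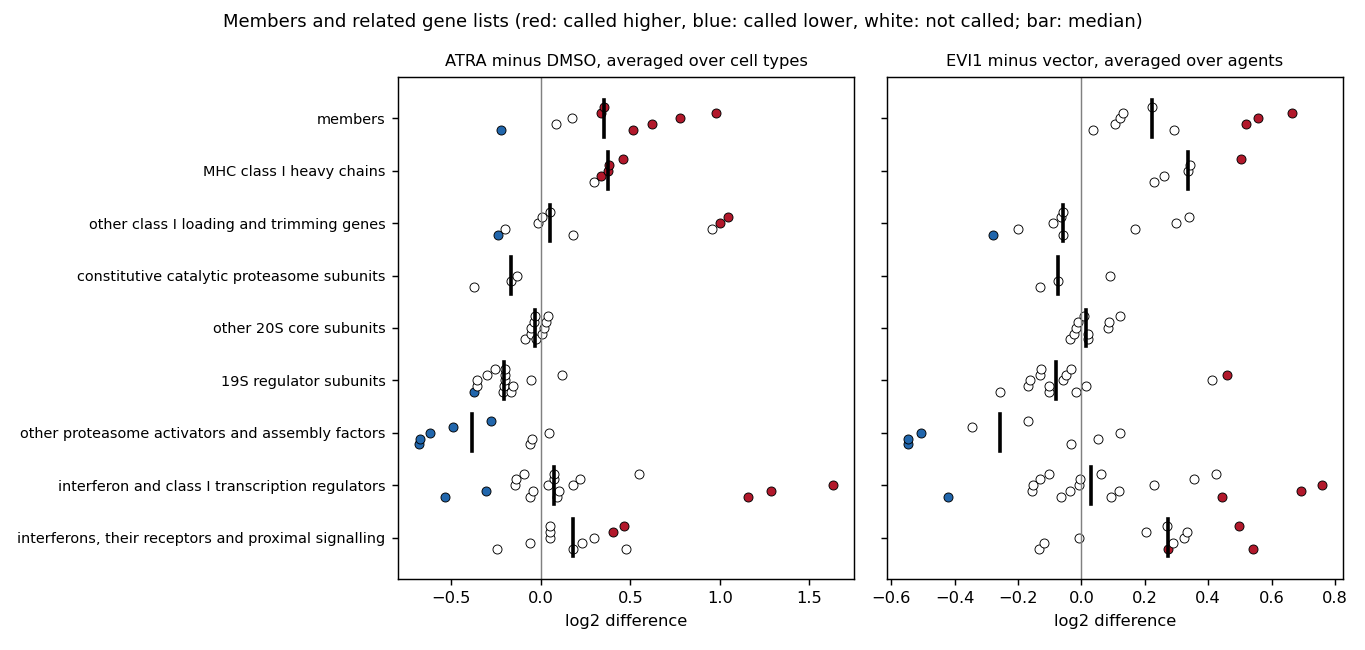
Averaged log2 differences of the 9 genes (top row) and of the related gene lists, ATRA minus DMSO on the left and EVI1 minus vector on the right. Each point is a gene, red called higher, blue called lower and white not called; bars are medians. Under ATRA the members' median is 0.35 and that of the heavy chains 0.38, beside -0.03 for the 20S core and -0.38 for activators and assembly factors.

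The genes whose 12 centred values lay closest to those of PSMB9 were DAAM1, GUSB, UBE2L6, RAB37 and FAM111A-DT. Their root mean square distances from PSMB9 were 0.21 to 0.24 log2 units, beside a median of 0.71 over all tested genes. Among the listed genes PSME1 was the closest to PSMB9, at 0.33, and TAP2 the farthest, at 0.71. Closest to PSMB10 were TTLL4, VPS45 and LAIR1 at 0.10 to 0.12, beside a median of 0.46, and its nearest listed gene was TAPBP at 0.18.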

How the data were processed

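Gene expression was measured on Affymetrix 3′ arrays with 250 ng of total RNA per sample, per the labels' protocols. The deposited log2 values were RMA values; the submitters' processing notes name Affymetrix Expression Console 1.3, and its settings are not given in the sources used here. Of 54675 probe sets, 41097 carry 1 gene symbol in the array annotation and represent 19775 genes. Where a gene had several, the one brightest on average stood for it. Genes at log2 5 or more on at least 3 arrays (14080) were tested in 1 limma 3.58.1 fit (R 4.3.3) of the 4 group means on all 12 arrays, with Benjamini-Hochberg adjustment, for 7 comparisons; the script was tested on simulated data. Comparisons that share a group are not independent. The series' design text calls the replicates biological without saying what separates them, p-values measure the spread between these samples, and the number of arrays limits the precision.

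Same-numbered arrays deviated together from their group means in all 18 same-numbered pairs of arrays from different groups (r 0.41 to 0.70). For different numbers r was -0.56 to 0.16. Deviations within a group cancel out, which pushes these values down when same-numbered ones are positive, so that range is no independent contrast. From the same-numbered values the numbers were taken to pair the samples. The fit with the replicate block is given where it changes a call of a measured member or of PSMB5, PSMB6, PSMB7 or IRF1. For the related lists it is given as counts of the averaged calls where these change by over 1.5 times. Limma values not named as from the block, and all fits with an array left out, ignore this pairing. Ratios were tested by an exact permutation of agents within cell type, which also ignores the pairing. Motifs were searched in RefSeq start windows (GRCh38.p14).

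The members, the related gene lists and the tests were chosen with earlier results of these data known, and nothing here is independent evidence for them. From each related list, up to 3 of the largest called changes per comparison are eligible to be named, with PSMB5, PSMB6, PSMB7 and IRF1 always; HLA-C and TAPBPL are given array by array, a choice made after their values were seen. Alternatives were other filters, probe set rules, normalisation, variance model, groups in the fit and left-out arrays. Marker lists for B, erythroid, epithelial, and fibroblast and endothelial cells averaged at most 6.17, 5.37, 4.87 and 5.20 on any array.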

Additional observations from a re-analysis of the deposited data

How the results depend on the processing

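The precision of 3 arrays a group limits every call. With the replicate block the members called numbered 7 for ATRA in vector cells, 4 for EVI1 under DMSO and 5 for EVI1 averaged, and all genes called numbered 2818, 5023, 5723, 1013, 3559 and 4033 in the 6 comparisons other than the interaction (ATRA in vector cells, in EVI1 cells and averaged, then EVI1 under DMSO, under ATRA and averaged). Without the block those were 496, 2127, 3158, 171, 790 and 1365. For ATRA in EVI1 cells, 3 members and 1952 of all genes were called with no signal filter. With every probe set tested these were 3 and 1899, and 1 member was called with only the groups compared in the fit. With only those groups, 0 members were called for EVI1 under DMSO and 0 under ATRA, and 735, 92 and 269 genes were called for ATRA in EVI1 cells and for EVI1 under DMSO and ATRA. Without both DMSO arrays of number 3, 35 genes were called for EVI1 under DMSO and 697 for EVI1 averaged. Leaving out 1 array at a time gave 1 to 3 members for ATRA in vector cells, 1 to 5 in EVI1 cells, 0 to 1 for EVI1 under DMSO and 0 to 2 under ATRA. For these comparisons the matching calls over all genes are not given, so a loss particular to the members is not shown. The interaction stayed at 0 members, and 1 gene of all was called without EVI1 ATRA 1. The 3 subunit ratios kept their direction and side of the threshold in every alternative run.

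Among the 9 measured members the block changed no call other than those given with the results. Values that changed sign were not called. With the mean of all probe sets, TAP2 for EVI1 under ATRA was -0.0317, and PSMB7 was -0.05 for EVI1 under DMSO, -0.0233 under ATRA, -0.0367 averaged and 0.0267 in the interaction. Without both DMSO arrays of number 3, the interaction of TAP1 was -0.0383 and PSMB5 for EVI1 under DMSO 0.05. Without 1 array at a time, EVI1 under ATRA ranged from -0.0333 to 0.0317 for PSMB8, -0.0383 to 0.0817 for TAP2 and -0.24 to 0.0017 for PSMB5. EVI1 under DMSO ranged from -0.22 to 0.15 for PSMB5, -0.15 to 0.0117 for PSMB6 and -0.0017 to 0.20 for PSMB7, EVI1 averaged from -0.17 to 0.0125 for PSMB5, and ATRA in vector cells from -0.15 to 0.0133 for PSMB6. The interaction ranged from -0.18 to 0.04 for PSMB10, -0.26 to 0.0417 for PSME1, -0.07 to 0.13 for TAP1, -0.09 to 0.17 for TAPBP, -0.0017 to 0.045 for B2M, -0.0033 to 0.14 for NLRC5, -0.27 to 0.10 for PSMB5, -0.11 to 0.0883 for PSMB7 and -0.42 to 0.22 for IRF1. The causes were not tested.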
